A study of Homo sapiens with 6 samples.

Results

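The clustered protocadherins are adhesion proteins of the cadherin superfamily encoded by 3 neighbouring gene clusters, alpha, beta and gamma, at 5q31. The members described here were all rows of the count table whose symbol begins with PCDHA, PCDHB or PCDHG and does not end in the P of a pseudogene. They numbered 53 of 38167 genes, with 15 in the alpha, 16 in the beta and 22 in the gamma cluster, and the rule uses no measured value. RNA came from small extracellular vesicles in the medium of spheroids of Cal27, an established tongue squamous carcinoma line, embedded in Matrigel until day 14. The soft group had Matrigel at 3 mg/mL and the stiff group at 12 mg/mL, and neither carried another treatment or genetic change in the labels. Each group had 3 libraries that the titles call biological replicates, all from a single cell line. The question that the design puts to these genes is whether their RNA in the vesicles differed between the soft and the stiff gel. Stiffness and Matrigel concentration changed together and cannot be told apart.

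Each alpha and each gamma member has a large exon of its own that encodes the outer cadherin repeats, the membrane span and the start of the cytoplasmic part. A promoter in front of each of these exons is chosen more or less at random in a neuron, with CTCF and cohesin looping the chosen promoter to an enhancer. The own exon is then spliced to constant exons that all members of the cluster share and that encode a common cytoplasmic tail. Beta members consist of a single exon and lack that tail. The proteins pair with identical copies on neighbouring cells, and in neurons the mixture on a cell serves to tell its own branches from those of others. The C-type members at the end of the alpha and gamma clusters are expressed more constantly than the rest.

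The constant exons bear on how far the counts of alpha and gamma members can be told apart, so their sequences are shown first. In GENCODE release 29 (GRCh38, plus strand of chromosome 5) the first constant exon of the alpha cluster lies at chr5:140978949-140979007 and was present in all 15 members, and that of the gamma cluster lies at chr5:141494807-141494865 and was present in all 22. Both are 59 bases long. Capitals mark the 20 bases at which the alpha and gamma sequences differ.
alpha constant exon 1: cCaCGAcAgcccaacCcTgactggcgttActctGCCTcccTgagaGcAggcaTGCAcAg
gamma constant exon 1: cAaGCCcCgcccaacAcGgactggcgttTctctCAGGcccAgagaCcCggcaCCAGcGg
The second constant exons, at chr5:140982475-140982563 and chr5:141505393-141505481, are 89 bases long in both clusters and differ at 60 of them, again in capitals.
alpha constant exon 2: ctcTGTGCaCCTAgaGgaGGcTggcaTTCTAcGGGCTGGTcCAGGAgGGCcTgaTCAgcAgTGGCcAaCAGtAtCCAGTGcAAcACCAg
gamma constant exon 2: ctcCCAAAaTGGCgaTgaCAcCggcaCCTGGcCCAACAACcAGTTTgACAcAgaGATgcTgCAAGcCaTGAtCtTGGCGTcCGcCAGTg
The first pair is identical at 66.1% of positions and the second at 32.6%, so the clusters differ in sequence in these short exons. How well reads over them tell the clusters apart was not tested. Within a cluster every member has these same exons. The annotated constant part was 2866 bases in alpha members (2869 in PCDHA1) and 2181 in gamma members (2183 in PCDHGA1). Most of it lies beyond these short exons and was not compared between the clusters.

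The join from an own exon into the constant part is where the sequence of an alpha or gamma member passes into the sequence it shares. The last 20 bases of the own exon are in lower case below and the first 20 of the constant exon in capitals, for the alpha members with the most and the fewest counts and for 4 gamma members whose values are given later.
PCDHA10: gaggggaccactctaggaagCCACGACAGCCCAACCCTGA
PCDHAC2: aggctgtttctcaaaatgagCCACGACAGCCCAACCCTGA
PCDHGA9: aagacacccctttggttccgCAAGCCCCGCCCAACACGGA
PCDHGA11: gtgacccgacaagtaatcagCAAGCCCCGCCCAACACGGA
PCDHGC3: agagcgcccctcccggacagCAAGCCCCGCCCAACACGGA
PCDHGC4: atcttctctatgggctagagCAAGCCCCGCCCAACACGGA
These lower-case stretches end at positions 140858436, 140969331, 141405376, 141423660, 141478546 and 141487615 of chromosome 5, in the order shown. Past the join the letters are identical within a cluster, and before it each of these members has its own 20 bases, although the last few can be shared.

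By annotation the shared part is large. In the full-length transcripts, constant exons made up a median of 54.5% of an alpha transcript (range 45.5% to 54.9%) and 47.3% of a gamma transcript (45.6% to 47.6%). Their own exons had median lengths of 2394 and 2430 bases, and beta exons one of 3935 bases. Own exons also resemble each other. Among all stretches of 61 bases, the read length in the labels, a median of 6.72% in alpha, 11.5% in beta and 4.70% in gamma own exons occurred letter for letter in the own exon of another member or of a pseudogene of the locus. The largest shares were 29.4% in PCDHA7, 40.6% in PCDHB8 and 18.0% in PCDHGB4 and PCDHGB5. The C-type members, PCDHB1, PCDHGA5, PCDHGB3 and PCDHGA7 had none. How the authors assigned reads that fit several places or several genes was not given in the sources used here, so counts of single members are uncertain to this extent.

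Library totals lay between 2445498 and 2977837 counts, and 37213 to 37366 genes had at least 1 count in each library. Members were covered evenly and thinly, with mean counts over the 6 libraries from 54.5 for PCDHB16 to 240 for PCDHA10. The tissue label was checked against 15 markers of squamous epithelium. None was at 0, and counts per kb of exon ran from 6.66 for DSC3 to 46.1 for SFN, with 19.7 for KRT5. Their median lay between 17.8 and 23.0 counts per kb over the libraries, against 14.5 to 17.2 for 12 neuronal markers, 9.51 to 14.1 for 9 glial, 8.75 to 10.9 for 8 fibroblast and 7.88 to 13.4 for 10 blood markers. Epithelial markers were thus above neuronal ones in each library's median, though the 2 lists differ in median GC content (56.5% and 43.6%). All protein-coding genes had medians of 14.8 to 16.8. No marker of any list had a mean of 0, and the lowest neuronal, fibroblast and blood markers had 6.14 (DCX), 4.93 (LUM) and 4.98 (HBB) counts per kb. The highest neuronal, glial, fibroblast and blood markers had 33.6 (NEFL), 66.6 (OLIG1), 24.6 (COL1A1) and 48.1 (HBA1). Single markers of other tissues, OLIG1 and HBA1, thus exceeded every squamous marker. By the labels all libraries came from a single cell line, so other cell types are not part of the design. With counts at 37213 to 37366 genes per library, whether counts at this level mark expressed genes was not tested. This holds for the protocadherins too.

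With counts per kb taken over the union of a gene's annotated exons, the 3 clusters stood at nearly the same level. This did not hold over the longest transcript. The unions include the constant exons, a median of 2866 bases in alpha and 2181 in gamma members, which beta members lack. Whether reads in those exons were counted for each member is unknown. If they were left out, counts per kb of own exon would be higher in alpha and gamma than the values below. The near equality of the clusters thus depends on the counting rule. The cluster medians, averaged over the 6 libraries, were 18.7 for alpha, 18.1 for beta and 19.6 for gamma. Olfactory receptors, taken as a background set, gave 11.3 over 380 genes, and all 18843 protein-coding genes with an annotated length gave 16.1. A set of 5260 protein-coding genes with a GC content between the quartiles of the members, 46.5% to 55.0%, gave 16.1 as well, though the median gamma member lies just above that window, at 55.2%. All 15 alpha, 14 of 16 beta and all 22 gamma members had more counts per kb than the median olfactory receptor. Most genes did so too, since the lower quartile was 10.7 for all protein-coding genes and 12.0 for the set of like GC content. The receptors also have a lower median GC content, 43.1%, and shorter exons, with a median of 1229 bases. Measured over the longest transcript instead, the medians were 22.6 for alpha and 23.3 for gamma, while the beta genes, whose models hold a single long exon, stayed near their value. The annotation that the authors counted was not given in the sources used here.

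**Figure D1:**
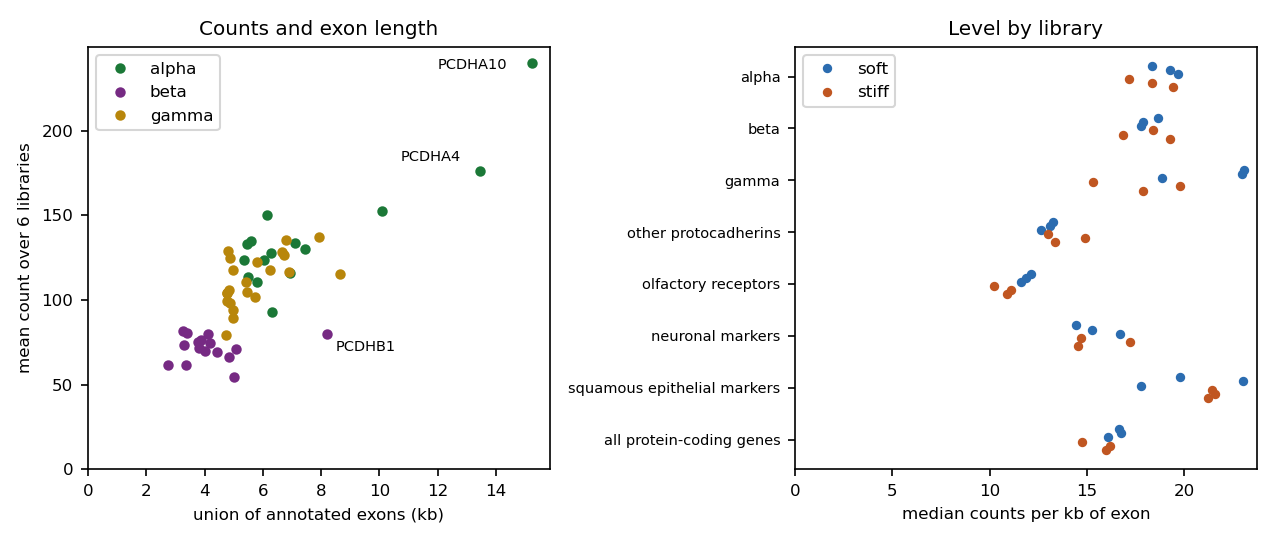
Left, mean count over the 6 libraries against the union of annotated exons in kb for each of the 53 members, coloured by cluster; PCDHA10, with the longest union, has the highest count. Right, median counts per kb of exon for the clusters and for other gene sets, 1 point per library (blue soft, orange stiff); alpha, beta and gamma lie above olfactory receptors in every library.

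Across the 53 genes, the mean count and the union of exons had a Spearman correlation of 0.74 (Pearson 0.82). It is a description across genes that share libraries and may share reads. Within clusters it was 0.52 in alpha (Pearson 0.87), −0.14 in beta (0.11) and 0.54 in gamma (0.57), so the pooled value holds differences between the clusters. Over the length of the full-length transcript it was −0.05 in alpha and 0.12 in gamma. In the order of replicates, PCDHA10 had 247, 282 and 198 counts in soft libraries against 228, 245 and 242 in stiff ones. PCDHA4 had 188, 208 and 151 counts in soft libraries against 160, 172 and 177 in stiff ones. These highest members of the table are also those with the longest exon unions, 15224 and 13440 bases, because each has an annotated transcript that runs on past its own exon. Per kb they stood at 15.8 and 13.1, below the alpha median of 19.1. PCDHB1 differs from the other beta genes in the same way, with 8210 bases of exon and 9.70 counts per kb, the lowest value of all members.

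Between the conditions, no member of any cluster passed the threshold of an adjusted p under 0.05 (edgeR quasi-likelihood test, Benjamini-Hochberg over all 31074 genes tested). All 53 members passed the filter on low counts and were tested. Of all genes tested, 0.451% were called (0.286% higher and 0.164% lower in stiff), so 0 of 53 is close to the background. DESeq2 with and without its filter on mean count and limma-voom also called 0 members. Before adjustment, 8 members had an edgeR p under 0.05, all in the gamma cluster and all lower in stiff. Over all genes, 4.5% had such a p with lower values in stiff and 5.01% with higher values in stiff. Standard errors of single members ran from 0.097 to 0.198 on the log2 scale, and the 95% interval of every member lay within a 2-fold change in either direction. In bulk vesicle RNA, fewer vesicles carrying a transcript and fewer copies in each cannot be told apart.

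**Figure D2:**
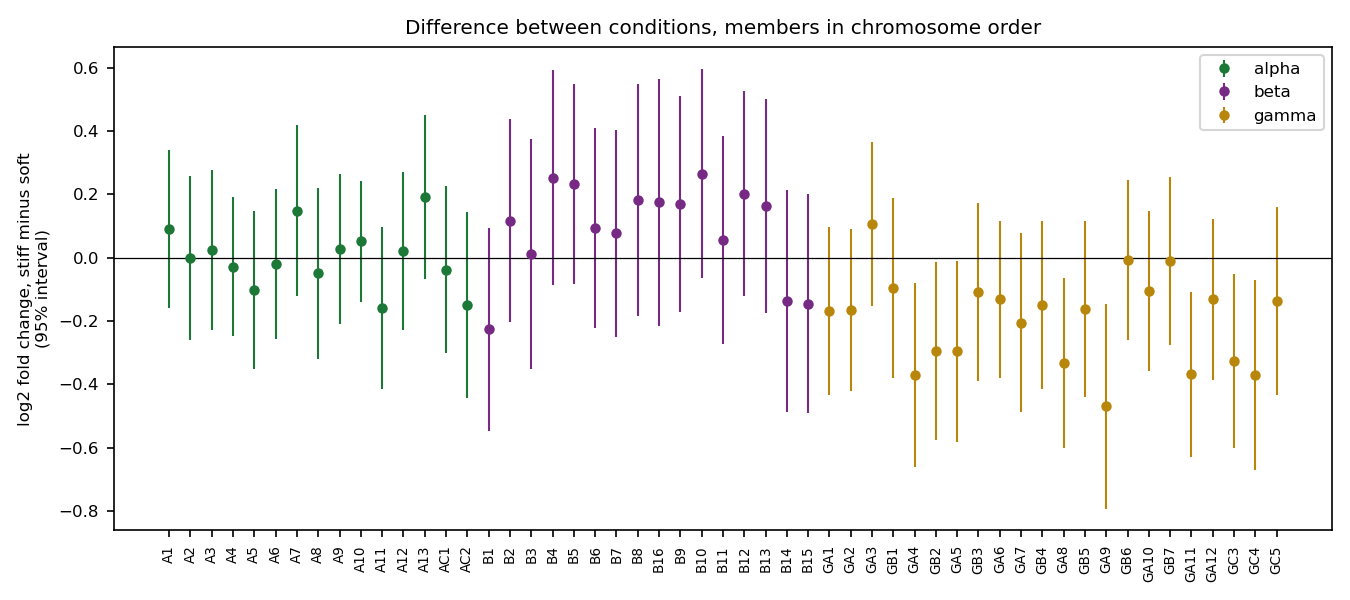
Log2 fold change of each member, stiff minus soft, with its 95% interval from the edgeR fit (3 libraries per group), in chromosome order and coloured by cluster. Alpha members scatter around 0, 13 of 16 beta members lie above it (their median is −0.13 when library totals are the only scaling) and 21 of 22 gamma members below it.

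Alpha members scattered around no change. Their log2 fold changes ran from −0.16 to 0.19 with a median of −0.00172, beside −0.00484 for all genes tested, and 8 of 15 were below 0. With library totals as the only scaling the alpha median was −0.27, the same as that of all genes to 2 decimals. Their intervals reached from −0.44 at the lowest to 0.45 at the highest. The 2 largest fold changes were those of PCDHA13 and PCDHA11. PCDHA13 had 48.4, 40.6 and 42.2 CPM (counts scaled to the size of the library, with TMM factors) in soft against 49.3, 47.7 and 52.9 in stiff libraries, with a log2 fold change of 0.19 ± 0.13 (SE; edgeR adjusted p = 0.686). PCDHA11 had 46.2, 56.9 and 49.4 CPM in soft against 47.7, 45.4 and 43.7 in stiff libraries (−0.16 ± 0.13, edgeR adjusted p = 0.752). In both genes the ranges of the groups overlapped. PCDHA9, next by count after PCDHA10 and PCDHA4, stood at 57.3 ± 7.35 and 58.5 ± 5.46 CPM (SD, n = 3 each), and PCDHA10 at 89.1 ± 13.8 and 92.6 ± 1.01.

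The C-type alpha members lie at the end of the cluster nearest the constant exons. PCDHAC1 had 44.4, 45.6 and 43.0 CPM in soft against 42.3, 43.9 and 43.3 in stiff libraries, and its coefficient of variation over the libraries, 2.65%, was the lowest of all members. PCDHAC2, known for the spacing of serotonergic axons, had the lowest counts of the cluster, at 35.2, 34.8 and 40.7 CPM in soft against 29.6, 37.9 and 31.9 in stiff (log2 fold change −0.15 ± 0.15 SE, edgeR adjusted p = 0.814). Summed over the cluster, alpha members took 777 ± 32.5 CPM in soft against 780 ± 20.3 in stiff (SD, n = 3 each), a ratio of 1.00. This sum can count a read of the constant exons once for each member.

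Beta members had a median log2 fold change of 0.14, with 3 of 16 below 0, but with library totals as the only scaling the median was −0.13, beside −0.27 for all genes. With the TMM scaling, 50.9% of all genes tested were below 0. No beta member had an unadjusted p under 0.05. The largest differences were those of PCDHB10 and PCDHB4. PCDHB10 had 25.7, 26.4 and 23.4 CPM in soft against 30.4, 30.03 and 30.4 in stiff libraries. All 3 stiff values were above the soft ones, as they also were for PCDHB13 (named after its values were seen), and 7.38% of all genes tested had such groups. The log2 fold change of PCDHB10 was 0.27 ± 0.17 (SE), with an adjusted p of 0.650 by edgeR. PCDHB4 had 24.9, 27.9 and 21.1 CPM in soft against 32.1, 22.9 and 33.5 in stiff, so its groups overlapped (0.25 ± 0.17, edgeR adjusted p = 0.685).

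The most abundant beta members by count were PCDHB6, PCDHB5 and PCDHB2. PCDHB6 had 99, 61 and 84 counts in soft against 88, 76 and 83 in stiff libraries. PCDHB5 had 73, 80 and 75 counts in soft against 68, 83 and 104 in stiff. PCDHB2 had 97, 66 and 74 counts in soft against 81, 66 and 97 in stiff. In each of them the spread inside a group was as wide as the gap between the groups. PCDHB16, the lowest, had 63, 58 and 37 counts in soft against 60, 53 and 56 in stiff. Summed over the 16 genes the cluster had 424, 417 and 420 CPM in soft against 460, 426 and 458 in stiff libraries. These groups did not overlap, at means of 420 ± 3.57 and 448 ± 18.96 CPM (SD, n = 3 each) and a ratio of 1.07, which became 0.885 with library totals as the only scaling. A sum over chosen members was given no test.

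**Figure D3:**
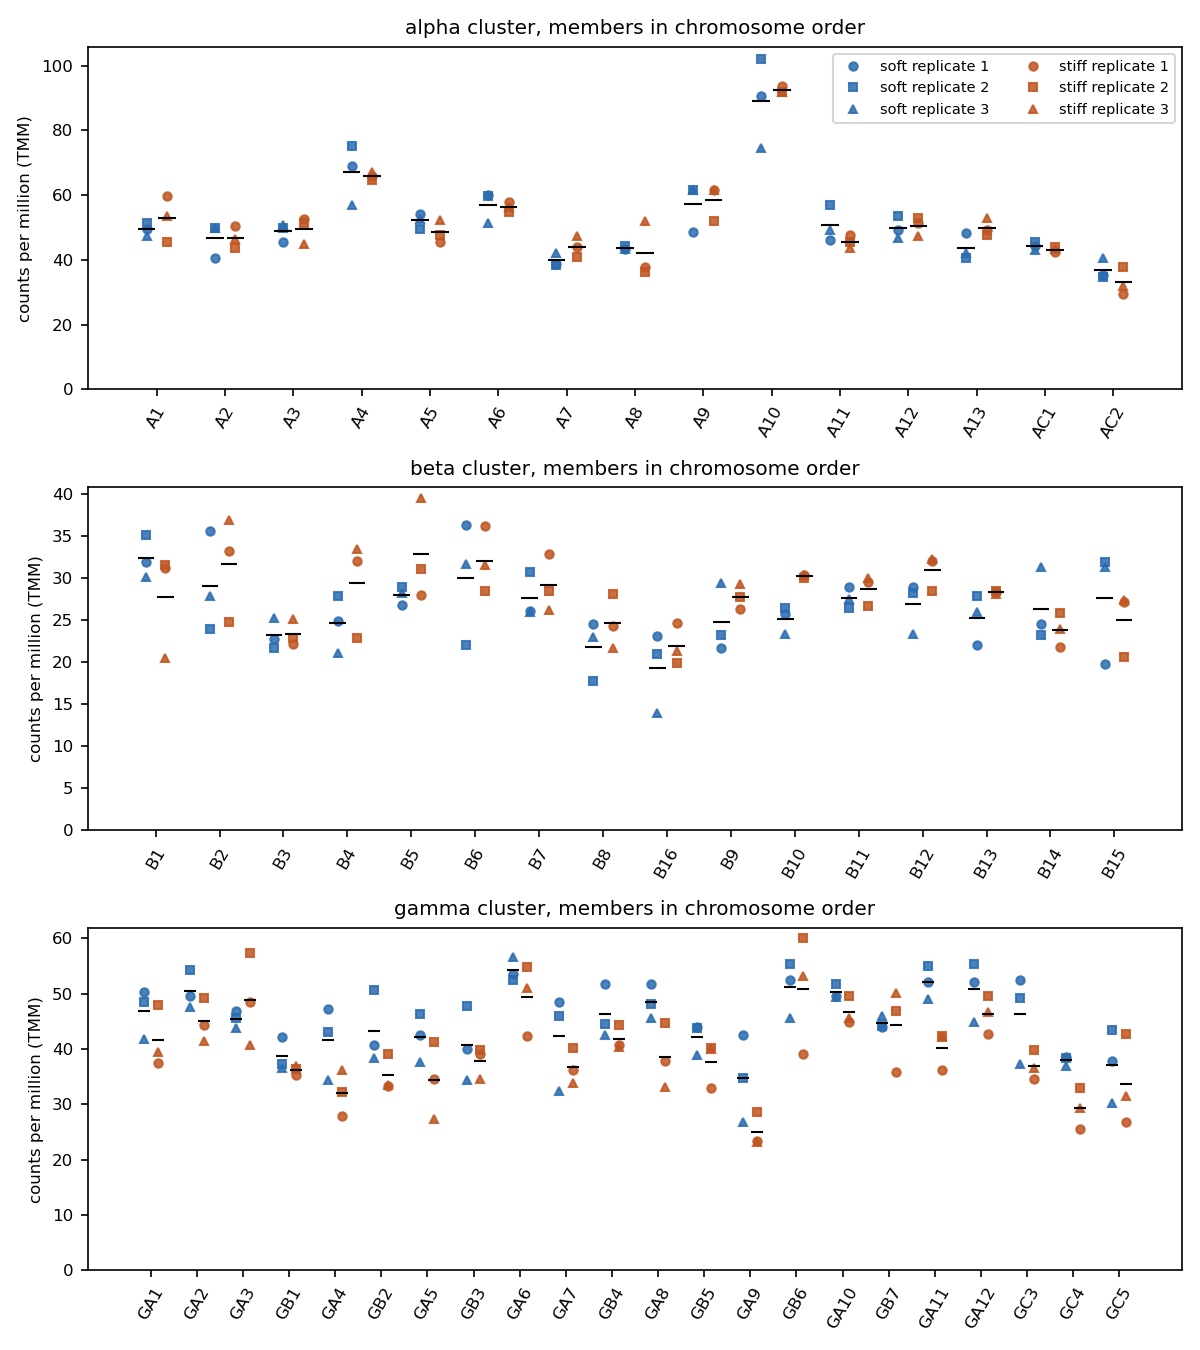
CPM scaled by TMM of every member in each library, in chromosome order, with alpha, beta and gamma clusters in separate panels; circles, squares and triangles are replicates 1, 2 and 3, blue is soft, orange is stiff, and black bars are group means (n = 3). In the gamma panel the stiff mean lies below the soft mean in 21 of 22 members, and PCDHGA9 is the lowest.

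In the gamma cluster 21 of 22 members had a log2 fold change below 0, with a median of −0.16 beside −0.00484 for all genes tested, and 0 were called. The gamma median was −0.43 with library totals as the only scaling, beside −0.27 for all genes, and −0.25 without stiff replicate 2. The exception was PCDHGA3, named after its values were seen, at 0.11. The 8 members with an unadjusted p under 0.05 were PCDHGA9, PCDHGA11, PCDHGA4, PCDHGC4, PCDHGA8, PCDHGC3, PCDHGB2 and PCDHGA5. Of these, PCDHGA11, PCDHGA4, PCDHGA8, PCDHGB2 and PCDHGA5 are named after their values were seen. By DESeq2 5 gamma members and by limma-voom 7 had an unadjusted p under 0.05. Leaving out soft replicate 1 or stiff replicate 1 reduced the count of 8 to 3, leaving out soft replicate 2 or stiff replicate 3 reduced it to 5, and leaving out soft replicate 3 or stiff replicate 2 gave 9. With library totals as the only scaling it was 21. These members cannot be treated as independent of each other. Their gene models share the constant exons, and whether a read there was counted for several members was not given.

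PCDHGA9 had the lowest mean count of the cluster and, in size, the largest log2 fold change of all members. It had 42.6, 34.8 and 26.8 CPM in soft libraries against 23.4, 28.5 and 23.2 in stiff ones. Soft replicate 3 lay inside the range of the stiff group. The log2 fold change of PCDHGA9 was −0.47 ± 0.16 (SE), with a 95% interval of −0.79 to −0.15 and an adjusted p of 0.224 by edgeR. Without soft replicate 1, the highest, it was −0.29 (adjusted p = 0.716), and over 17 alternative settings the adjusted p ranged from 0.00172, with library totals as the only scaling, to 0.999. PCDHGA11 had 52.1, 55.1 and 49.0 CPM in soft against 36.2, 42.4 and 42.2 in stiff libraries. Its groups did not overlap, which held for 3 gamma members in this direction and for 6.76% of all genes tested (log2 fold change −0.37 ± 0.13 SE, edgeR adjusted p = 0.241).

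Among the C-type gamma members, PCDHGC4, which neurons need for survival, had 38.5, 38.4 and 37.0 CPM in soft against 25.5, 33.0 and 29.3 in stiff libraries. Its groups did not overlap, with a log2 fold change of −0.37 ± 0.15 (SE) and an adjusted p of 0.354 by edgeR. PCDHGC3, whose tail is known to bind Axin1 in neurons, had 52.5, 49.3 and 37.3 CPM in soft against 34.5, 39.8 and 36.5 in stiff, where soft replicate 3 lay inside the stiff range (−0.33 ± 0.14, edgeR adjusted p = 0.385). PCDHGC5 had 37.8, 43.5 and 30.2 CPM in soft against 26.7, 42.8 and 31.6 in stiff, with wide overlap (−0.14 ± 0.15, edgeR adjusted p = 0.839).

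The gamma members with the most counts had smaller log2 fold changes. PCDHGA6 had 146, 145 and 150 counts in soft against 103, 146 and 134 in stiff libraries. PCDHGB6 had 143, 153 and 121 counts in soft against 95, 160 and 140 in stiff, with a log2 fold change of −0.00589 (edgeR adjusted p = 0.994). PCDHGA12 had 142, 153 and 119 counts in soft against 104, 132 and 123 in stiff. In each of the 3 genes stiff replicate 1 held the lowest count and the other stiff libraries lay within or close to the soft range.

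Gamma members had their lowest and highest values in the same few libraries. Stiff replicate 1 held the lowest CPM for 14 of 22 gamma members, against 3 of 15 alpha and 1 of 16 beta members, and 17.9% of all genes tested had their lowest value there. Soft replicates 1 and 2 held the highest CPM for 10 and 8 gamma members. Soft replicate 1 did so for 2 alpha and 1 beta members and soft replicate 2 for 5 and 2, with 17.0% and 16.9% over all genes tested. Gamma members took 1030.4, 1037 and 897 CPM in soft against 799, 960 and 847 in stiff libraries, or 988 ± 79.1 and 869 ± 82.6 (SD, n = 3 each), a ratio of 0.879 between groups that overlapped.

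**Figure D4:**
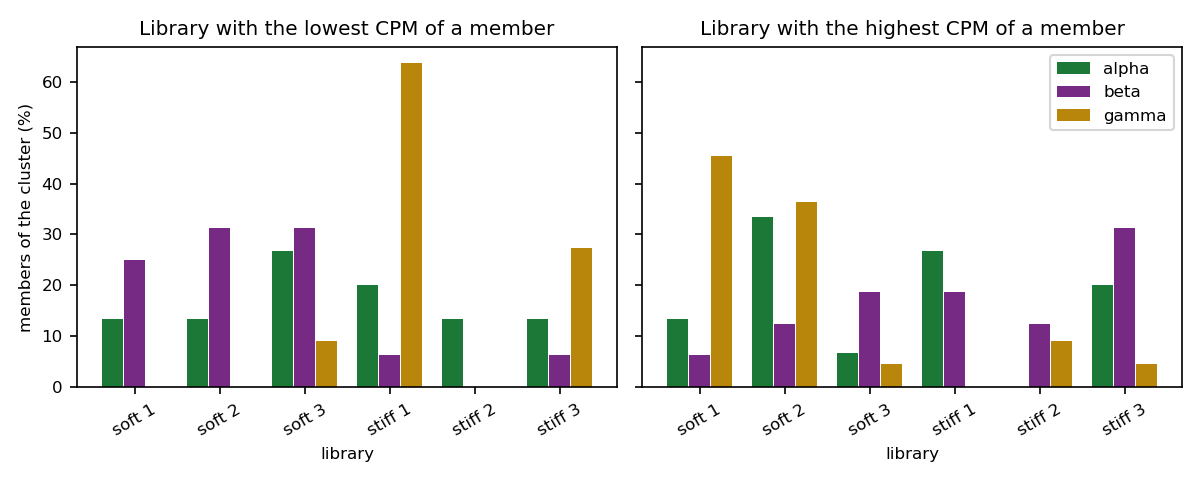
Share of the members of each cluster, in percent, that had their lowest (left) or highest (right) CPM in each of the 6 libraries. In the gamma cluster 14 of 22 members are lowest in stiff replicate 1, and 18 of 22 are highest in soft replicates 1 and 2.

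Dividing one cluster by another within a library takes out the scaling of libraries. The ratio of gamma to alpha counts was 1.35, 1.27 and 1.19 in soft against 1.01, 1.27 and 1.07 in stiff libraries, and the groups overlapped at stiff replicate 2. The ratio of gamma to beta counts was 2.43, 2.49 and 2.14 in soft against 1.74, 2.25 and 1.85 in stiff, again with overlap. The ratio of alpha to beta counts was 1.80, 1.95 and 1.79 in soft against 1.72, 1.77 and 1.73 in stiff. Here the groups did not overlap but came close, at 1.79 and 1.77. Among single genes tested, 6.76% had groups of CPM apart in this direction. These ratios of sums were given no test.

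If a read in a constant exon was counted for every member, the reads shared by a whole cluster cannot exceed the lowest member of that cluster in a library. In the gamma cluster this ceiling was 103, 96 and 71 counts in soft against 57, 76 and 61 in stiff libraries, and PCDHGA9 set it in all but soft replicate 1, where PCDHGC5 did. In the alpha cluster it was 96, 96 and 108 in soft against 72, 97 and 84 in stiff libraries, set by PCDHAC2 in all but stiff replicate 2, where PCDHA8 did. The ceiling was 60.7% to 78.9% of the median gamma member and 58.5% to 82.4% of the median alpha member. The median gamma count above the ceiling was 27.5, 34 and 36 in soft against 31, 37.5 and 39.5 in stiff libraries. For alpha it was 36, 42 and 23 in soft against 51, 30 and 53 in stiff libraries. These counts are not scaled to library size. The lowest member was picked by its value in each library, so the ceiling and the counts above it are descriptions. How much of the part under the ceiling came from the constant exons was not tested.

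The 4 pseudogenes of the locus that were in the table have no constant exons. PCDHGB8P, which lies among the gamma genes, had 25, 62 and 45 counts in soft against 51, 44 and 50 in stiff libraries (log2 fold change 0.21 ± 0.22 SE, edgeR adjusted p = 0.823). PCDHB17P, PCDHB18P and PCDHB19P, among the beta genes, had log2 fold changes of 0.20, −0.28 and −0.00186, with edgeR adjusted p from 0.669 to 0.999. None of the 4 was called, and the groups overlapped in each.

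Of the 12 protocadherins outside the clusters 0 were called by edgeR, and PCDH8, PCDH10 and PCDH19 had an unadjusted p under 0.05, all higher in stiff (edgeR adjusted p from 0.281 to 0.391), as 5.01% of all genes tested did. These 3 are named after their values were seen. In the whole list 1 of 12 was below 0, and the median log2 fold change was 0.18. PCDH9 and PCDH15, the most abundant of them by count, stood at 109 ± 7.16 and 118 ± 10.5 CPM and at 84.0 ± 5.88 and 88.1 ± 6.25 CPM (SD, n = 3 each). Of 24 genes that govern promoter choice and chromatin folding at the locus, such as CTCF, the cohesin subunits and SMCHD1, 0 were called and 0 had an unadjusted p under 0.05, with a median of 0.04. EHMT1, a histone methyltransferase, had 170 ± 4.11 and 180 ± 6.72 CPM, and TET3, which oxidises methylated cytosine, had 127 ± 6.26 and 130.2 ± 9.85.

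Partners of the protocadherin tail and its signalling, among them the kinases PTK2 and PTK2B, the WAVE complex and the proteases that shed these proteins, gave 0 calls of 26 and a median of 0.02. NLGN1, a neuroligin that gamma protocadherins bind, stood at 163 ± 10.0 and 152 ± 4.96 CPM, and AXIN1 at 99.2 ± 8.92 and 110 ± 11.1. Of 22 tested neighbours on the same band 0 were called, at a median of 0.00379. PCDH1 and ARAP3, the most abundant of these by count, had 71.3 ± 6.03 and 71.9 ± 4.998 CPM and 61.5 ± 6.86 and 66.1 ± 15.5 CPM. An unadjusted p under 0.05, which 9.51% of all genes tested had, was seen for 2 partners and 1 neighbour, each named after its values were seen. They were PDCD10 (log2 fold change −0.59, edgeR adjusted p = 0.0865), MARCKS (0.36, edgeR adjusted p = 0.414) and IK (0.43, edgeR adjusted p = 0.3995). Of 15 squamous markers 1 was called, KRT14 of the basal layer, which was higher in stiff by 0.69 on the log2 scale (edgeR adjusted p = 0.0281). Of all genes tested, 0.286% were called higher. The squamous list as a whole had a median of 0.07, with 6 of 15 below 0. Among the 37 neuronal, glial, fibroblast and blood markers tested 0 were called.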

How the data were processed

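The deposited file is a table of raw counts per gene symbol for 6 libraries, with no normalization per the file's name and values. The submitters' processing notes name Trim Galore 0.4.2, cutadapt 1.9.1, FastQC 0.11.7, STAR 2.6.1e, featureCounts 1.6.2 and DESeq2 1.26.0 and the build hg38, without roles. Which annotation, strand setting and rule for shared reads were used is not given in the sources used here. In the descriptions 2 stiff libraries carry the same replicate number, and the titles were followed.

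The stiff group was set against the soft group with edgeR 4.0.16 in R 4.3.3 with TMM factors, filterByExpr and robust quasi-likelihood fits over the whole table, two-sided, with Benjamini-Hochberg adjustment. The filter left 31074 genes. Standard errors and 95% intervals came from the F statistic. Replicates of a group differed beyond sampling noise in every pair (chi-square per degree of freedom 1.53 to 3.86 over genes with at least 10 counts). The largest values, 3.86 and 2.86, were those of soft replicate 3 with soft replicates 1 and 2. Nothing beyond the titles says that replicates came from separate cultures, so p-values measure the spread between these libraries. Exon models, lengths and GC content came from GENCODE 29, which matched 25567 genes by symbol and all 53 members. The fit was also run on simulated counts of independent genes with a single dispersion. That run does not cover shared reads or an outlying library. Members, gene lists and alternatives were chosen with earlier results of these data known. Genes described in full were, per cluster, the 3 members with the highest and the 1 with the lowest mean count, the 2 with the largest fold change, and all C-type members. PCDHGA11 met none of these rules and was added after its values were seen.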

Additional observations from a re-analysis of the deposited data

How the results depend on the processing

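Over 17 alternative fits, 0 members were called in 16. The exception was scaling by library totals alone, where all genes together had a median of −0.27 on the log2 scale and 4194 genes were called, 4163 of them lower in stiff. It called 19 members, all lower in stiff (16 gamma, 2 alpha and 1 beta). The cluster medians were then −0.43 for gamma, −0.27 for alpha and −0.13 for beta, and the ratios of cluster sums were 0.729, 0.832 and 0.885. In the other 16 alternatives the gamma median lay between −0.25 and −0.13, with 18 to 22 gamma members below 0. Leaving out 1 library at a time gave ratios of cluster sums from 0.834 to 0.916 in gamma, 0.992 to 1.03 in alpha and 1.05 to 1.09 in beta. With alpha and gamma members summed into 1 row each, 0 rows of the locus were called. Counts per kb over the longest transcript had medians of 22.6 in alpha and 23.3 in gamma.

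The replicate block called 0 members and 173 genes in all, against 140 without it. Deviations of libraries with the same number correlated at 0.00241, 0.00346 and −0.00363, so the numbers were not treated as pairs. Over the whole table DESeq2 called 81 genes with its filter on mean count and 46 without, limma-voom 91, and edgeR with a GC content offset 54 of 21673. Leaving out 1 library gave 60 to 136 calls. With DESeq2's filter, 22 of 53 members had an adjusted p. The 95% intervals of 45 of 53 members lay within 1.5-fold in either direction, with 3 libraries a group and the spread between them.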
